A study of Drosophila melanogaster with 7 samples.

Results

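The 7 genes described here, ImpE1, ImpE2, ImpE3, ImpL1, Edg78E, Edg84A and Edg91, are fly genes named for their response to the steroid hormone ecdysone. They were chosen by name: every probe set whose only gene symbol in the array's annotation is one of the 7 was taken. This gave 10 of the 18769 fly probe sets, and 7 of the 11982 genes that have a probe set with 1 symbol. ImpE1 had 4 probe sets, and the other genes had 1 each.

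The study measured RNA of salivary glands from prepupae on 7 Affymetrix arrays, 1 array per sample, to find genes that respond to GAL4, a yeast transcription activator used in flies to switch on transgenes. The control strain w1118 had 2 arrays. Line X1 had 3 arrays of animals with 2 copies of P{hs-GAL4}X1. The other line, 89, carried the P{GAL4-Hsp70.PB}89-2-1 insertion, with 1 array of 2-copy animals and 1 array of 1-copy animals. Both transgenes are named for a heat-shock promoter, which is not limited to the gland. All animals, controls included, were reared at 25 °C and given 30 min at 37 °C, and their glands were dissected 14 h after puparium formation. The heat shock came 9.5 h after puparium formation in w1118 and 9 h after it in the GAL4 animals. GAL4, strain background and this difference in time therefore cannot be told apart in any comparison with w1118. The series text calls the X1 and w1118 arrays biological replicates.

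Ecdysone acts through a receptor made of the EcR and usp proteins, which switches on early regulators that in turn control later genes. The Imp genes were first isolated from imaginal discs, the precursors of adult structures, as transcripts for secreted or membrane proteins that the hormone induces early (E) or late (L). The Edg genes are expressed in the prepupal epidermis after a pulse of ecdysone has risen and fallen, and they encode proteins of the pupal cuticle. The salivary gland is a larval secretory organ that is destroyed after an ecdysone pulse at the end of the prepupal stage.

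The values are dChip intensities, which the authors scaled to a common baseline array. For folds and tests, intensities below 16 were set to that floor and logarithms to base 2 were taken. A probe set was called at a limma adjusted p under 0.05 over all fly probe sets (Benjamini-Hochberg). Median intensity was 33.7 to 38.0 in the X1 arrays and 40.8 to 44.9 in the other 4, and 18.8% to 30.0% of probe sets lay under 16. Of 14 measured salivary gland markers, 11 reached 64 in some array. Their summed intensity was 8879 and 10671 in w1118, 6697 to 7246 in X1, and 7388 and 3518 in the 2-copy and 1-copy arrays of line 89. Against w1118, Sgs7 (-1.12) and sage (-1.13) fell and Sgs3 (1.15) rose in X1, and 0 were called in line 89 by limma, with 6 at an unadjusted p under 0.05. The median change of the 14 in X1 was 0.25, against -0.12 over all genes, so the lower sum in X1 rests on its bright members. Markers of other cell types are given at the end. For the poly-A control RNAs, the mean 5' minus 3' signal (log2) was -0.517 and -0.997 in w1118, -1.49 and -1.25 in line 89, and between -3.02 and -2.60 in X1. In whole glands, fewer cells of a type and less RNA per cell cannot be told apart.

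The clearest differences from w1118 were in the Imp genes, all at modest intensity. ImpE2, ImpE3, ImpL1 and 1 ImpE1 probe set were lower in line X1, between 2.22-fold and 3.06-fold. The brightest ImpE1 probe set was not called, with a log2 change of 0.64 in X1. ImpE2 was also lower in line 89. These calls did not hold under every setting given below. With arrays scaled to hybridization controls 0 remained in either line, and in X1 0 remained without w1118 replicate 1 or X1 replicate 3. The 3 Edg cuticle genes, which gave intensities from 324.5 to 2304, were not called in any comparison. Edg78E and Edg84A instead varied strongly among arrays of the same line.

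**Figure D1:**
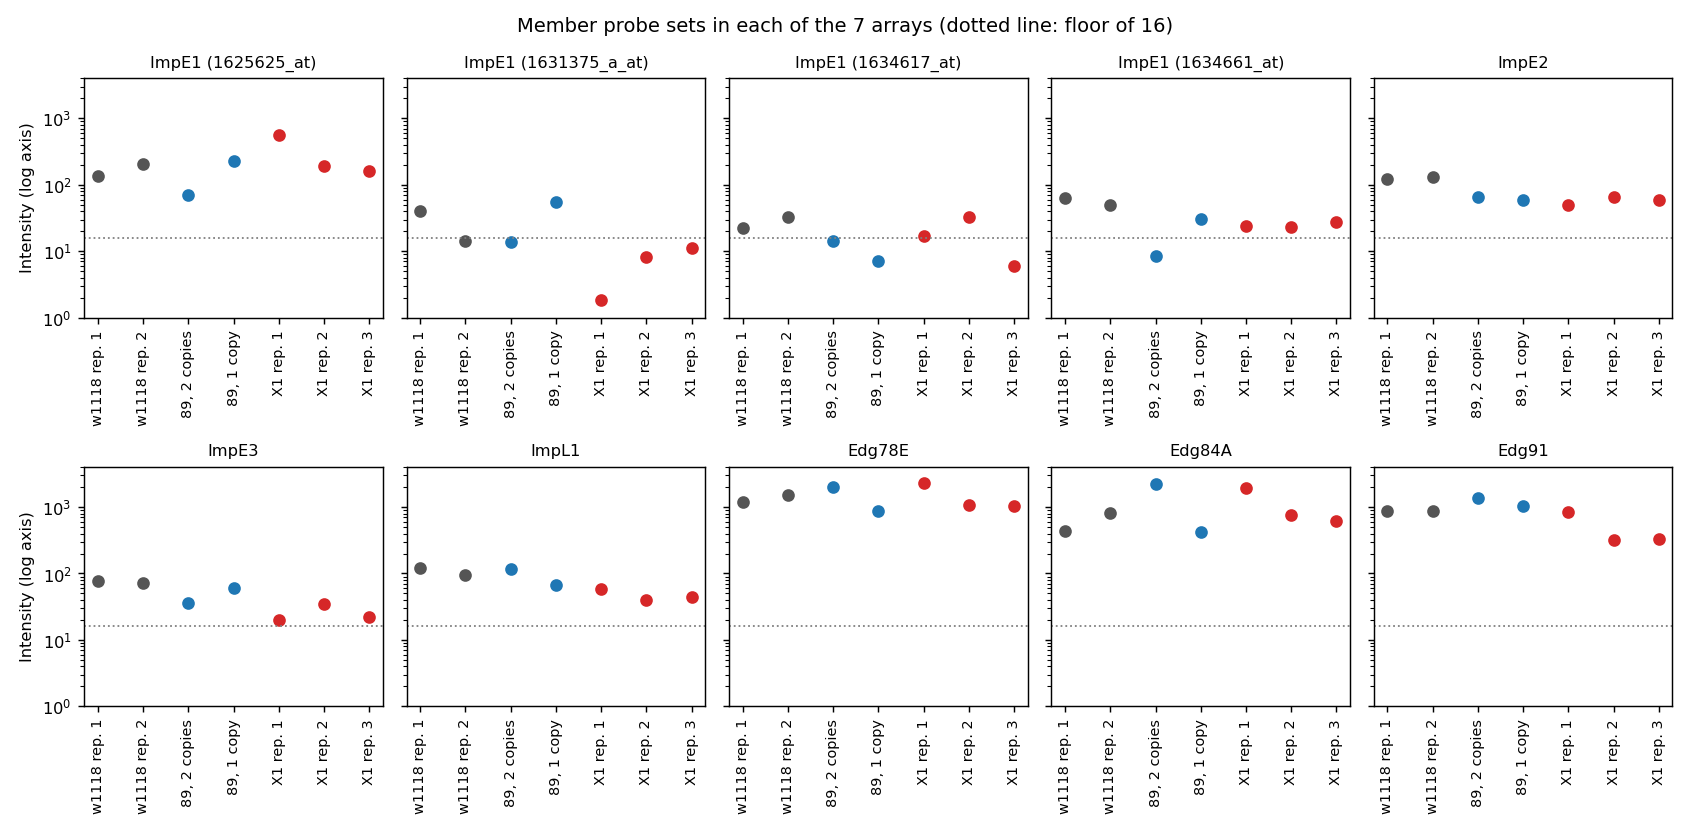
Intensity of each of the 10 probe sets (log axis) in each of the 7 arrays, 1 point per array, grey for w1118, blue for line 89 and red for X1. ImpE2 lies at 123.9 and 131.9 in w1118 and between 49.3 and 65.5 in the 5 GAL4 arrays, while Edg84A is highest in line 89 with 2 copies (2214) and X1 replicate 1 (1965).

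ImpE2 encodes a secreted protein of the early group, placed at the apical surface of disc epithelia. It measured 123.9 and 131.9 in w1118, 49.3, 65.5 and 59.3 in X1, and 64.7 and 60.0 in the 2-copy and 1-copy arrays of line 89. All 5 GAL4 arrays lay below both w1118 arrays, and the lines overlapped each other. In X1 it fell from 127.9 ± 5.71 (SD, n = 2) to 58.0 ± 8.16 (SD, n = 3), a log2 change of -1.15 ± 0.15 (SE, limma adjusted p = 0.0193). In line 89 the change was -1.04 ± 0.15 (adjusted p = 0.0360), 2.05-fold lower, and the copy numbers differed by 1.08-fold. X1 and line 89 differed by -0.11 on the log2 scale, with a 95% interval from -0.48 to 0.25. The call in X1 held in 9 of 16 alternative settings and that in line 89 in 3 of 13, with changes from -1.24 to -0.48 and from -1.13 to -0.46.

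ImpE3, also of the early group, lay at 78.0 and 71.7 in w1118, at 19.6, 34.2 and 21.8 in X1, and at 36.2 and 60.9 in the 2-copy and 1-copy arrays of line 89. The X1 arrays were the lowest and the w1118 arrays the highest, with no overlap between any of the lines. It fell 3.06-fold in X1, from 74.8 ± 4.42 (SD, n = 2) to 25.2 ± 7.85 (SD, n = 3), the largest change among the 10 probe sets (-1.61 ± 0.29, adjusted p = 0.0396). In line 89 the change was -0.67 ± 0.37 (adjusted p = 0.471), and the X1 arrays lay a further 0.94 below line 89 (95% interval -1.81 to -0.07, adjusted p = 0.233). Its call in X1 held in 7 of 16 alternatives. With a floor of 64 the change was -0.22, since every GAL4 array lay under that floor.

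ImpL1, of the late group, gave 120.2 and 93.7 in w1118, 57.7, 39.6 and 43.5 in X1, and 115.4 and 67.9 in the 2-copy and 1-copy arrays of line 89. The X1 arrays lay below all others, while the array of line 89 with 2 copies lay between the w1118 arrays. In X1 it fell from 107.0 ± 18.7 (SD, n = 2) to 46.9 ± 9.51 (SD, n = 3), 2.29-fold (-1.20 ± 0.23, adjusted p = 0.0443), a call that held in only 3 of 16 alternatives. The change in line 89 was -0.26 ± 0.33 (adjusted p = 0.782), and X1 against line 89 gave -0.93 ± 0.30 (adjusted p = 0.196).

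ImpE1 encodes a protein with repeats like those of the low-density lipoprotein receptor, and its 4 probe sets disagreed. Probe set 1634661_at gave 63.8 and 50.4 in w1118, 24.1, 23.2 and 27.3 in X1, and 8.60 and 30.3 in the 2-copy and 1-copy arrays of line 89. Every GAL4 array lay below both w1118 arrays. It fell 2.29-fold in X1 (-1.19 ± 0.15, adjusted p = 0.0175; call held in 8 of 15 alternatives), and the change in line 89 was -1.36 ± 0.33 (adjusted p = 0.112) with 1 array under the floor.

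The brightest ImpE1 probe set, 1625625_at, showed another pattern, at 135.5 and 208.0 in w1118, 569.6, 194.6 and 160.4 in X1, and 71.4 and 229.2 in the 2-copy and 1-copy arrays of line 89. The groups overlapped, and X1 replicate 1 and the line 89 array with 2 copies lay at opposite ends. Its change was 0.64 ± 0.69 in X1 (adjusted p = 0.598) and -0.39 ± 0.85 in line 89 (adjusted p = 0.909). The last 2 ImpE1 probe sets were dim: 1631375_a_at lay between 1.82 and 54.6, with 5 arrays under 16, and 1634617_at between 5.93 and 32.4, with 3 arrays under 16. Neither was called in any of the 3 comparisons. The probe sets thus gave no common direction for ImpE1 in X1.

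In all, 4 of the 10 probe sets fell and 0 rose in X1, beside 18.1% of all fly probe sets called in either direction, 7.5% higher and 10.6% lower. The median log2 change of the 10 was -0.81, against -0.09 over all probe sets. Every X1 array lay under every w1118 array for 6 of the 10, as for 33.4% of all probe sets. In line 89 1 of the 10 fell and 0 rose, beside 4.38% of probe sets called (2.73% higher, 1.65% lower), with a median change of -0.33 against 0.00. Both line 89 arrays lay under both w1118 arrays for 4 of the 10, as for 23% of all. These 2 comparisons share their w1118 arrays. Between X1 and line 89 limma called 0 of the 10, with 3 at an unadjusted p under 0.05 (ImpE3, ImpL1 and Edg91, all lower in X1), beside 1.98% of all probe sets called (0.73% higher, 1.25% lower). Other variance settings likewise called 0, and leaving out X1 replicate 1 gave 1 call, Edg91. Every X1 array lay under both line 89 arrays for 4 of the 10, as for 23.8% of all.

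**Figure D2:**
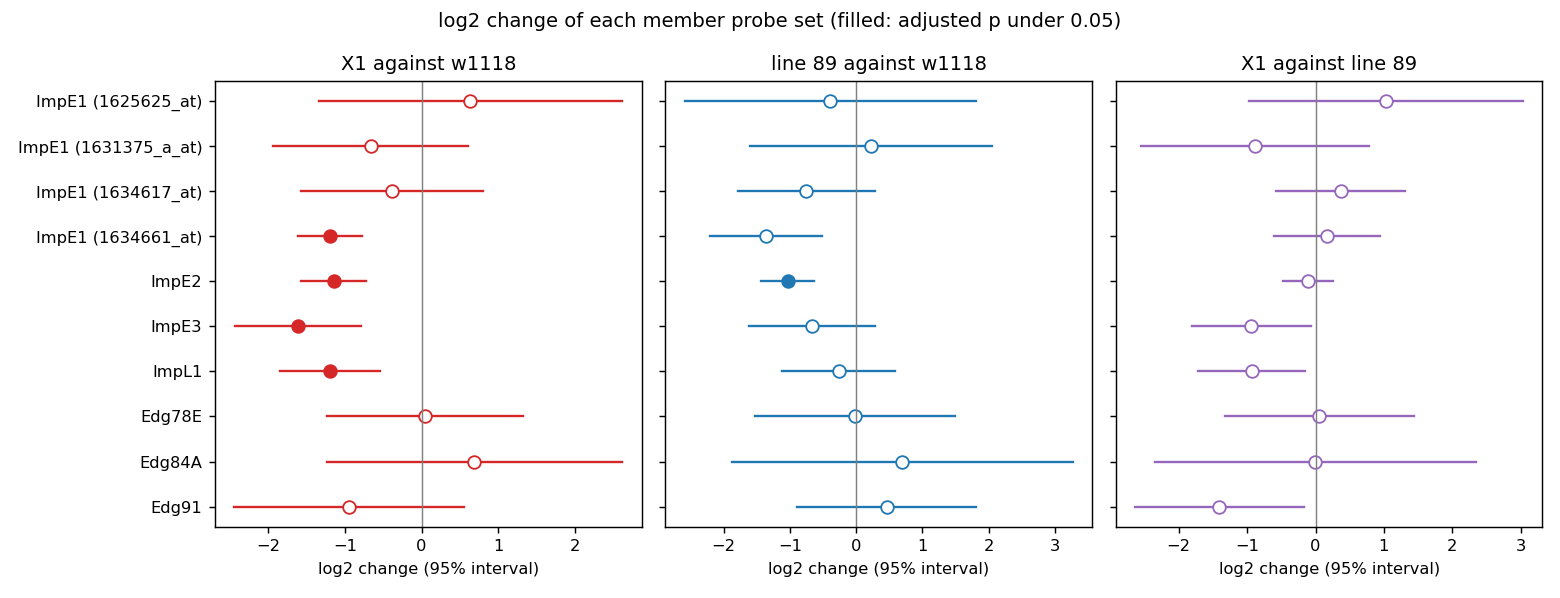
log2 change of each probe set with its 95% interval, in 3 panels for X1 against w1118 (red), line 89 against w1118 (blue) and X1 against line 89 (purple), filled where called at an adjusted p under 0.05. The 4 filled red points lie between -1.61 and -1.15 and the only filled blue point is ImpE2 at -1.04, while the intervals of Edg84A run from -1.24 to 2.62 in X1 and from -1.88 to 3.27 in line 89.

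The falls depended on how the arrays were scaled. When each array was scaled to its hybridization controls, RNAs added to every sample before hybridization, the median change of all probe sets moved from -0.09 to 0.25 in X1 and from 0.00 to 0.40 in line 89. Relative to that median the X1 changes were -0.77 for ImpE1 1634661_at, -0.73 for ImpE2, -1.19 for ImpE3 and -0.78 for ImpL1, against -1.10, -1.06, -1.52 and -1.11 with the authors' scaling. The direction of these 4 stayed negative under quantile, median and hybridization control scaling, and 0 of the 10 was called under the last. The mean 5' minus 3' signal of the poly-A controls given above was also lower in X1 than in w1118. So were the summed gland markers, though not the median change of those markers. Their part in the falls was not tested.

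**Figure D3:**
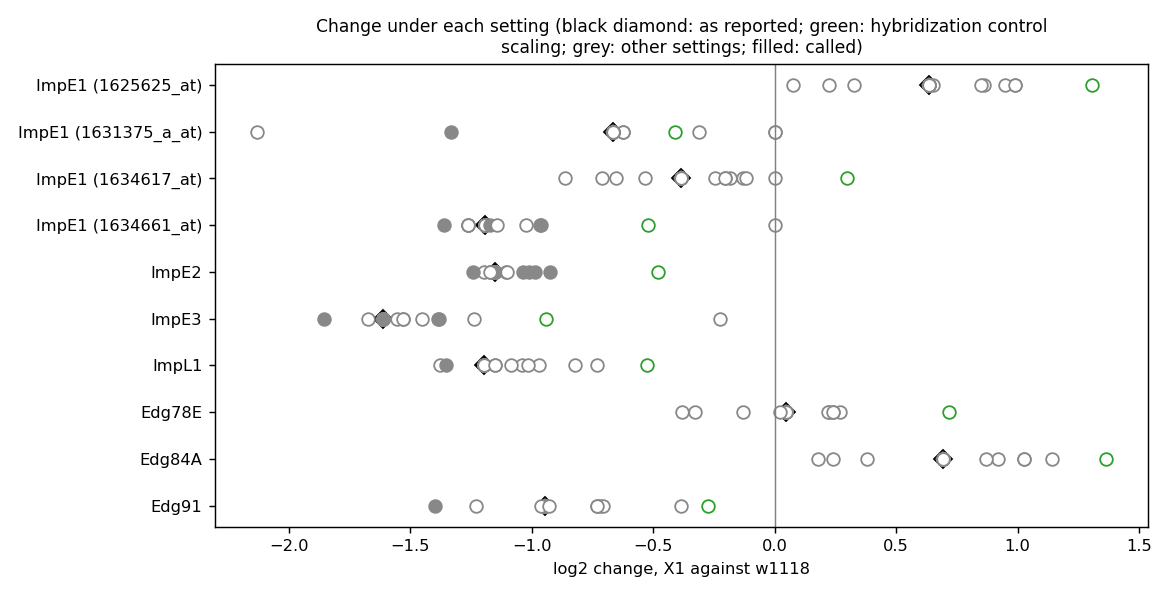
log2 change of each probe set in X1 against w1118 under every setting tried, with a black diamond for the value as reported, green for hybridization control scaling and grey for the other settings, filled where called. The points of ImpE2 run from -1.24 to -0.48 and those of ImpE3 from -1.85 to -0.22, all below 0, whereas those of Edg78E lie on both sides of 0.

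Edg78E encodes a pupal cuticle protein and sits among related cuticle protein genes. Its intensity was 1178 and 1506 in w1118, 2304, 1077 and 1046 in X1, and 2029 and 859.1 in the 2-copy and 1-copy arrays of line 89. X1 replicate 1 and the line 89 array with 2 copies were the highest, and the other arrays of both lines lay under the w1118 arrays. The mean was 1342 ± 231.7 (SD, n = 2) in w1118 and 1475 ± 717.6 (SD, n = 3) in X1, a log2 change of 0.04 ± 0.45 with a 95% interval from -1.24 to 1.33 (adjusted p = 1.00). Its sign turned after quantile normalization (-0.38). In line 89 the change was -0.01 ± 0.58 (adjusted p = 1.00).

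Edg84A encodes another pupal cuticle protein and is a known target of the nuclear receptor ftz-f1. It gave 437.1 and 817.5 in w1118, 1965, 752.0 and 608.6 in X1, and 2214 and 422.9 in the 2-copy and 1-copy arrays of line 89. The same 2 arrays were again the highest, and the remaining 5 lay between 422.9 and 817.5 whatever their line. The change was 0.69 ± 0.67 in X1 (adjusted p = 0.550) and 0.69 ± 1.00 in line 89 (adjusted p = 0.819). The interval for X1, from -1.24 to 2.62, leaves room for a fall and for a larger rise of several fold.

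Edg91 encodes a glycine-rich cuticle protein. It lay at 860.6 and 879.6 in w1118, 844.8, 324.5 and 336.2 in X1, and 1395 and 1025 in the 2-copy and 1-copy arrays of line 89. X1 replicate 1 lay just under the w1118 arrays, X1 replicates 2 and 3 well below them, and both line 89 arrays above them. In X1 the change was -0.95 ± 0.52 (adjusted p = 0.321). Without X1 replicate 1 it was -1.40 (adjusted p = 0.00756), and X1 against line 89 then gave -1.86 (adjusted p = 0.0499) in place of -1.40 ± 0.48 (adjusted p = 0.213). No other setting called Edg91, so it was called in 1 of 16 alternatives for X1 against w1118 and 1 of 14 for X1 against line 89. These calls rest on removing the X1 array that stood apart for this gene. The change in line 89 against w1118 was 0.46 ± 0.52 (adjusted p = 0.749).

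X1 replicate 1 thus stood apart from the other X1 arrays in all 3 Edg genes. It exceeded the mean of X1 replicates 2 and 3 by 2.17-fold for Edg78E, 2.89-fold for Edg84A, 2.56-fold for Edg91 and 3.21-fold for ImpE1 1625625_at. An excess of at least 1.5-fold over both other X1 arrays, a limit set after these values were seen, was found in 8.45% of all fly probe sets. Among 25 other measured genes for structural cuticle proteins it was found in 10. The largest, named after their values were seen, were TwdlE, of the Tweedle family (9.96-fold over the mean of the other X1 arrays), and the chitin-binding protein genes obst-A (4.38-fold) and Gasp (4.11-fold). TwdlE, at 711.3 in X1 replicate 1 and 71.4 in each of the other X1 arrays, also differed between the w1118 arrays, at 636.7 and 131.5. The excess of at least 1.5-fold was not limited to structural cuticle genes. It was found in 8 of 21 cuticle assembly genes, 5 of 14 salivary gland markers and 3 of 7 tracheal markers, and in 0 of 10 muscle markers.

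With 1 array each, the copy numbers of line 89 can be set side by side but not tested. With 2 copies Edg84A was 5.24-fold and Edg78E 2.36-fold higher than with 1 copy, while 10.7% of all probe sets were at least 2-fold higher. Edg91 was 1.36-fold and ImpL1 1.70-fold higher. ImpE1 was 3.21-fold lower by 1625625_at and 3.41-fold lower by 1631375_a_at, the latter with the 2-copy array under the floor, while 7.75% of all probe sets were at least 2-fold lower. ImpE3 was 1.68-fold lower. The excess in X1 replicate 1 was then combined with a 2-fold excess with 2 copies over 1. This pair was set after Edg78E and Edg84A were seen to peak in those arrays, so both meet it by that choice. It was also seen in 3 of the 25 other cuticle genes (obst-E, TwdlE and TwdlT), beside 0.757% of all probe sets. It was not limited to cuticle genes: 3 of 14 salivary gland markers (Sgs1, Sgs8 and ng1), ftz-f1 and Lsd-1 had it too. Of the 21 cuticle assembly genes 0 had both excesses, and 8 were at least 2-fold lower with 2 copies than with 1.

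**Figure D4:**
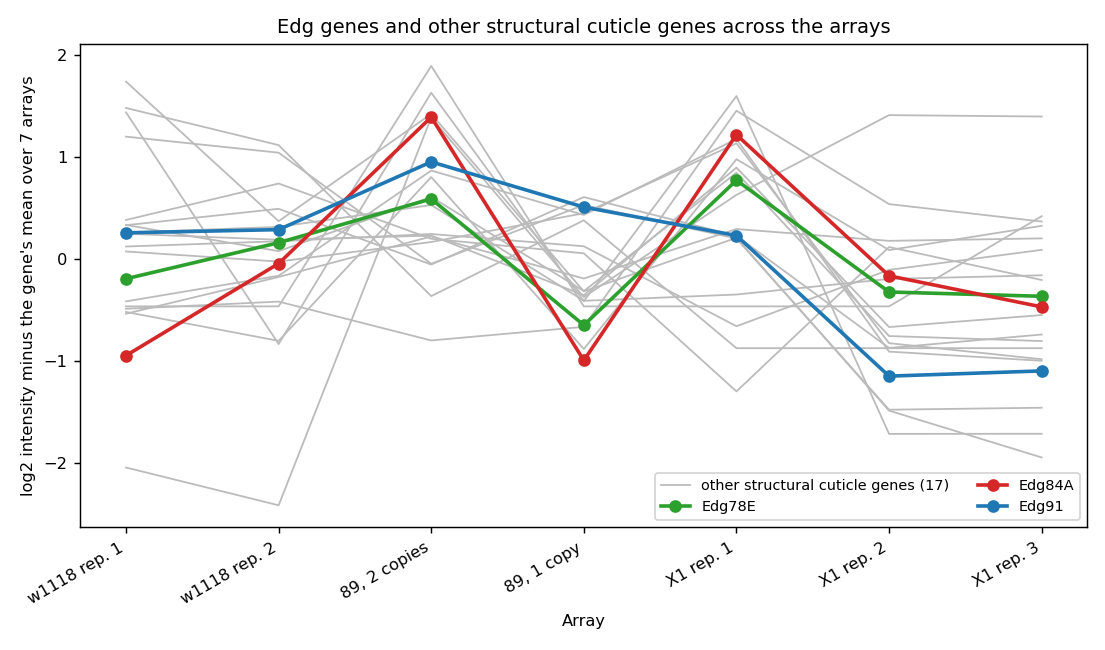
log2 intensity of Edg78E, Edg84A and Edg91 in the 7 arrays, each minus its own mean, with 17 other structural cuticle genes that reached 64 in some array in grey. Lines only join the values of 1 gene; Edg78E and Edg84A peak in line 89 with 2 copies and in X1 replicate 1, and Edg91 is lowest in X1 replicates 2 and 3.

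Edg78E and Edg84A had the most similar profiles among the 21 pairs of the 7 genes (brightest probe set of each). Across the 7 arrays their log2 values correlated at Pearson r = 0.92 (exact permutation p = 0.00675, adjusted over the 21 pairs 0.142) and Spearman rho = 0.86 (exact permutation p = 0.0238, adjusted 0.348). Without line 89 with 2 copies and X1 replicate 1, r was 0.64. For ImpL1 and Edg91 r was 0.83 (permutation p = 0.0220, adjusted 0.231), rho = 0.75 (p = 0.0663, adjusted 0.348), and r = 0.85 without w1118 replicate 1 and X1 replicate 2. For ImpE2 and ImpE3 r was 0.81 (permutation p = 0.0331, adjusted 0.232), rho = 0.82 (p = 0.0341, adjusted 0.348), and r = 0.56 without the w1118 arrays. No pair passed the adjustment.

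Among all other genes that reached 64 in some array, those closest to each member were named by the root mean square (RMS) difference of centred log2 values over the 7 arrays, chosen from 8049 probe sets. For ImpE2 these were bdl (0.09), Snp (0.10) and Ack-like (0.11), and for ImpE3 msn (0.08), PolI (0.12) and orb2 (0.14). For ImpL1 they were Srp19 (0.10), CG11906 (0.11) and Ubi-p5E (0.12), and for ImpE1 1634661_at Bulli (0.09), sturkopf (0.15) and CG7601 (0.16). Matches were less close than these for the Edg genes and also for the other ImpE1 probe sets. They were AsnRS (0.18), CG7130 (0.21) and lqfR (0.21) for Edg78E, CG18581 (0.33), Glyp (0.33) and CG43084 (0.34) for Edg84A, and CG3939 (0.21), CG15213 (0.23) and Tapdelta (0.24) for Edg91. The closest to ImpE1 1625625_at was CadN (0.20), followed by CG2818 (0.29) and Kul (0.29). For the dim probe sets they were CG31642 (0.23), Taz (0.27) and CG1998 (0.27) for 1631375_a_at, and poe (0.20), CG8475 (0.22) and Lrrk (0.22) for 1634617_at.

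Other genes named for ecdysone, listed together with Sb and Kr-h1, which are not so named, went both ways. Of 7 measured, 3 rose and 2 fell in X1, and 1 rose and 0 fell in line 89. Counted by gene, with each gene's brightest probe set, 9.46% of all genes rose and 11.5% fell in X1, and 3.54% rose and 1.57% fell in line 89. MsrA, once named Eip71CD and encoding a methionine sulfoxide reductase, rose from 193.8 ± 7.57 (SD, n = 2) to 979.5 ± 68.9 (SD, n = 3) in X1 (2.34 ± 0.08, adjusted p = 0.00155). Kr-h1, for a transcription factor of hormone responses, rose by 2.17 on the log2 scale, with w1118 replicate 1 under the floor, and ImpL2, the other Imp gene measured, by 4.99. ImpL2 was the only riser of this list in line 89 (4.58 ± 0.39, adjusted p = 0.00883). Eip63E, for a cyclin-dependent kinase, fell from 3782 ± 924.0 to 1366 ± 183.8 (-1.46 ± 0.22, adjusted p = 0.0272), and an antisense transcript, asRNA:Eig63F-2, fell by 0.76.

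Among 18 regulators of the ecdysone cascade, 1 rose and 2 fell in X1, and 1 rose and 1 fell in line 89. The orphan nuclear receptor gene Hr78 rose in both lines (1.41 and 1.56) and Eip78C fell in both (-2.90 and -2.51). The receptor gene EcR fell in X1 (-1.30 ± 0.10, adjusted p = 0.00627), and its change in line 89 was 0.14 (adjusted p = 0.749). It lay at 748.7 and 727.3 in w1118, 282.6, 285.2 and 333.4 in X1, and 719.1 and 913.7 in the 2-copy and 1-copy arrays of line 89. X1 against line 89 gave -1.44 ± 0.14 (adjusted p = 0.0324). Over all genes, 0.985% were called higher and 1.38% lower in X1 than in line 89. Its partner usp gave changes of -0.12 in X1 and 0.04 in line 89. The gene ftz-f1, named here for its role in Edg84A expression and chosen after its values were seen, lay at 355.6 and 662.8 in w1118, 613.8, 302.3 and 270.8 in X1, and 1543 and 460.3 in the 2-copy and 1-copy arrays of line 89. It was highest in the same line 89 array as Edg84A, and within X1 in replicate 1 (changes of -0.40 and 0.80, adjusted p = 0.658 and 0.679). In X1 replicate 1, however, ftz-f1 lay below w1118 replicate 2, whereas Edg84A lay above both w1118 arrays. Any part of ftz-f1 in the Edg84A values was not tested.

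In steroid synthesis and handling 2 of 10 genes rose and 1 fell in X1, and 1 rose in line 89. The synthesis enzyme gene sad rose from 85.4 to 1001 in X1 (3.56 ± 0.19, adjusted p = 0.00306) and to 1144 and 741.8 in line 89 (3.45 ± 0.27, adjusted p = 0.00720), and shd, which makes the active hormone, rose by 1.93 in X1. Oatp74D, which imports ecdysone into cells, fell (-0.74 ± 0.11, adjusted p = 0.0242).

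Of the 25 other structural cuticle genes 1 rose and 3 fell in X1, and 0 were called in line 89 by limma, with 2 at an unadjusted p under 0.05. The shares of all genes in X1 were 9.46% higher and 11.5% lower. Pcp, a pupal cuticle protein gene, rose from 856.4 ± 154.9 (SD, n = 2) to 9111 ± 2542 (SD, n = 3) in X1 (3.38 ± 0.33, adjusted p = 0.0106), with 10455 and 3080 in the 2-copy and 1-copy arrays of line 89. The larval cuticle protein genes Lcp65Ae (-2.18, every X1 array under 16), Lcp65Af (-1.18, likewise) and Lcp65Ac (-0.52) fell. Without X1 replicate 1 the counts were 3 higher and 8 lower, the added falls being Lcp65Ad, Lcp65Ag3, Cpr78Cc, Gasp and obst-B. These counts are no separate result, since that array was left out after its high values in such genes were seen. Calls over all probe sets also went up, from 3404 to 4170. The summed intensity of the 25 genes was 10080 and 8958 in w1118, 21636, 15516 and 15212 in X1, and 22325 and 12237 in the 2-copy and 1-copy arrays of line 89. Pcp carried much of the rise. Without it, the other 24 genes summed to 9114 and 8211 in w1118, 15460, 4887 and 4684 in X1, and 11871 and 9157 in the 2-copy and 1-copy arrays of line 89. Both sums were highest in the same 2 arrays as Edg78E and Edg84A, but X1 replicates 2 and 3 lay above w1118 with Pcp and below it without.

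Of 21 genes that build, modify or tan the cuticle, 3 rose and 4 fell in X1, and 2 rose and 0 fell in line 89. Without X1 replicate 1, again a choice made after the values were seen, the X1 counts were 3 and 9. Cht2, for a chitinase, rose from 288.1 ± 22.3 (SD, n = 2) to 2085 ± 277.3 (SD, n = 3) in X1 (2.85 ± 0.14, adjusted p = 0.00277) and to 698.1 and 620.3 in line 89 (1.19 ± 0.15, adjusted p = 0.0251). The laccase gene stw (3.93) and the zona pellucida domain gene pio (2.47) rose in X1. In X1 mmy, for an enzyme of chitin precursor synthesis, fell by 0.94 and t, for a tanning enzyme, by 1.96. Gld, for glucose dehydrogenase, lay at 26.5 and 31.4 in w1118, under 16 in every X1 array and at 218.1 and 147.2 in line 89. It fell in X1 (-0.85 ± 0.09, adjusted p = 0.0130, a lower limit since every X1 array was set to the floor) and rose in line 89 (2.64 ± 0.21, adjusted p = 0.00719).

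Markers of the other cell types were measured for 9 fat body, 13 hemocyte, 10 muscle, 7 tracheal and 9 imaginal epithelium genes. In X1 the fat body and muscle lists had calls in both directions. Calls in the remaining lists were few: 2 falls among the 13 hemocyte genes, 1 rise among the 7 tracheal genes and 1 among the 9 imaginal genes. Over all genes 9.46% were called higher and 11.5% lower in X1. Median changes were 0.12 for the hemocyte list, -0.27 for the tracheal list and 0.03 for the imaginal list, against -0.12 over all genes. Among the imaginal markers dpp rose in X1 (0.89, adjusted p = 0.00833) and in line 89 (0.91, adjusted p = 0.0135), and 4 of 9 stayed under 64 in every array. Their summed intensity was 473.4 and 453.2 in w1118, 653.7 to 767.3 in X1 and 501.0 and 596.2 in line 89. Chosen after their values were seen, Dll, a gene of limb discs, was at 346.9 in X1 replicate 1 against 93.0 and 99.6 in the other X1 arrays, while esg, a gene of imaginal cells, was at 46.8 against 418.5 and 401.1. The part of these cells in the Edg values was not tested.

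Of the fat body markers 1 rose and 3 fell in X1. Lsd-1, for a lipid droplet protein, rose (3.80), and Npc2e (-4.44), Yp1 (-1.12) and Fbp2 (-5.51) fell, the second with every X1 array under the floor. Npc2e also fell in line 89 (-4.84). The storage protein gene Lsp2 lay between 4178 and 6458 in all 7 arrays. The list summed to 14756 and 16450 in w1118, 12105 to 18447 in X1 and 20733 and 14096 in line 89, a sum that hides these opposite changes. Of the hemocyte markers 0 rose and 2 fell in X1, Ppn (-1.20) and NimC1 (-1.17), and 0 were called in line 89 by limma, with 3 at an unadjusted p under 0.05. Their sum was nonetheless 2656 and 2778 in w1118, 3349 to 4613 in X1 and 4984 and 4059 in line 89, mostly through crq (0.85, adjusted p = 0.0841 in X1). Hml, which defines larval hemocytes, lay between 9.38 and 54.7. Of the muscle markers 2 rose and 3 fell in X1. The troponin C gene TpnC73F (6.28) and sls (1.66) rose, and Act79B (-0.70), Act87E (-0.85) and Mlc1 (-1.27) fell, while in line 89 TpnC73F (6.24) and sls (1.96) rose. The muscle sum was 997.9 and 1013 in w1118 and 13260 to 13970 in the GAL4 arrays, of which TpnC73F gave between 12379 and 12930. Osi9 was the tracheal marker that rose, in X1 (1.91) and in line 89 (1.83). The tracheal sum was 1241 in w1118 replicate 1 and 258.7 to 490.7 in the other 6 arrays, the excess coming from Osi6 at 1045. Between X1 and line 89 the markers called were Ppn (-0.82, adjusted p = 0.0305) and hh (-1.15, adjusted p = 0.0474), both lower in X1.

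On the map, 28 genes that flank the 7 were measured, the nearest 2 on each side with a probe set. In X1 3 of them rose and 2 fell, and in line 89 2 rose and 0 fell. Counted the same way, 9.46% of all genes rose and 11.5% fell in X1, and 3.54% rose and 1.57% fell in line 89. ImpE1 lies beside Idh, for isocitrate dehydrogenase, and Culd. Idh rose from 1401 and 1345 in w1118 to 7966, 8781 and 7583 in X1 and to 6206 and 6433 in line 89 (2.56 ± 0.08 and 2.20 ± 0.10, adjusted p = 0.00138 and 0.00152). Culd rose by 4.21 in X1 and 3.20 in line 89. On the other side of ImpE1, the protease genes Jon66Ci and Jon66Cii were not called. ImpE2 lies beside Eip63E, which also fell in X1. ImpL1 lies beside CG14110, which fell by 0.74, and next to that CG10171 rose by 4.05 in X1. CG10171 lay at 190.0 and 204.2 in w1118, 2986 to 3518 in X1, and 2592 and 582.2 in the 2-copy and 1-copy arrays of line 89. The measured neighbours of ImpE3, Edg78E, Edg84A and Edg91 were not called in either line. Of the cuticle genes beside Edg78E, Cpr78Cc gave 328.3 in X1 replicate 1 against 110.9 and 120.4 in the other X1 arrays, and Ccp84Ae beside Edg84A gave 272.4 against 251.3 and 255.6.

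**Figure D5:**
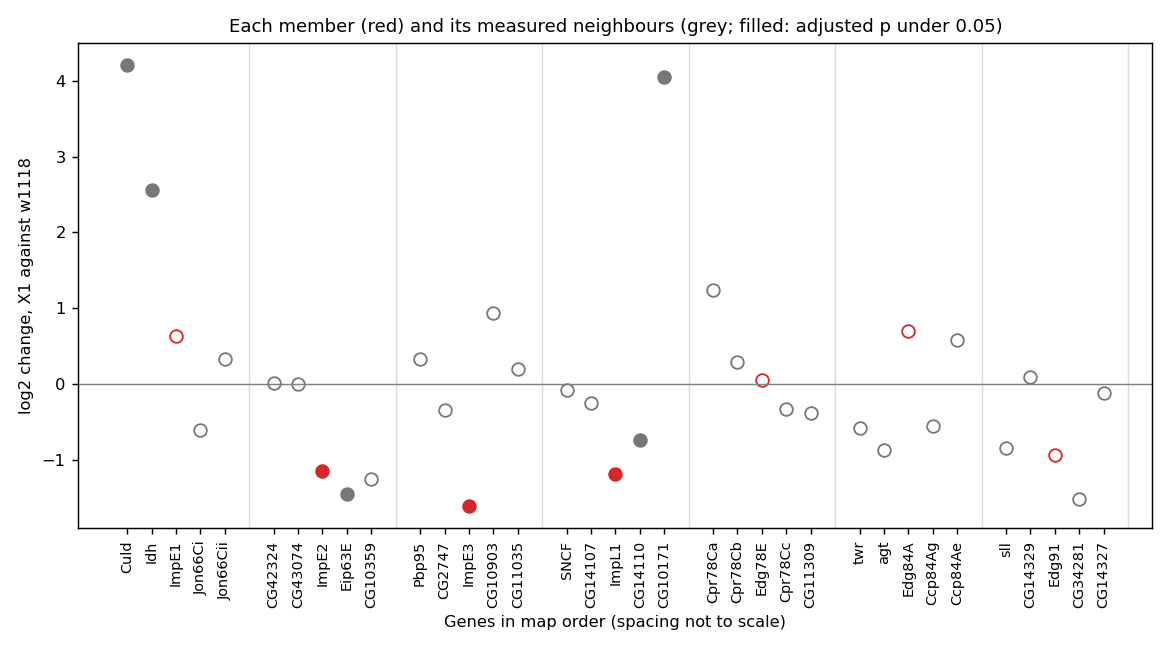
log2 change in X1 against w1118 of each of the 7 genes (red, brightest probe set) and of its nearest measured neighbours on each side (grey) in map order, filled where called. Culd (4.21), Idh (2.56) and CG10171 (4.05) stand high beside ImpE1 and ImpL1, which lie at 0.64 and -1.20.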

How the data were processed

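Intensity on a linear scale, computed by the authors with dChip and normalized against a shared baseline array (median intensity 145, per the series text), was read from the deposited table. The model used in dChip is not given in the sources used here. Of 18952 probe sets, 183 controls were left out of the tests. By the platform annotation 13647 fly probe sets had 1 symbol, 402 had several and 4720 had none. A RefSeq gene table was used for names and gene order, and all 7 genes matched it.

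Intensities were floored at 16 and log2-transformed with no other filter. limma 3.58.1 (R 4.3.3, lmFit and eBayes, two-sided) compared X1 with w1118 on 5 arrays. The 2 comparisons of line 89 used a joint model of all 7 arrays, in which its copy numbers formed a single group. Benjamini-Hochberg adjustment ran over 18769 probe sets. Correlations between genes used exact permutation of arrays. The number of arrays limits the precision.

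All probe sets of the 7 genes are given. Of each other list up to 3 called genes per direction are named by adjusted p, each by its brightest probe set, and exceptions are marked as such. The nearest measured neighbours and the closest profiles complete the named genes. Members and lists were chosen with earlier results of these data known. The alternatives changed the floor, scaling, filter, variance model, threshold, grouping and arrays.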

Additional observations from a re-analysis of the deposited data

Results flagged for a closer look

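The 6 genes below, from the lists of cascade regulators, cuticle assembly and cell type markers and from the neighbours of ImpE1, differed between X1 and line 89 in a direct test of the difference (limma, adjusted over all probe sets). Gld was lower in X1 (log2 difference -3.48 ± 0.19, adjusted p = 0.00913), having fallen in X1 and risen in line 89 against w1118, in 3 of 3 and 2 of 2 arrays. EcR was lower in X1 (-1.44 ± 0.14, adjusted p = 0.0324), as were the hemocyte marker Ppn (-0.82 ± 0.08, adjusted p = 0.0305) and the imaginal marker hh (-1.15 ± 0.16, adjusted p = 0.0474). Cht2 (1.66 ± 0.14, adjusted p = 0.0252) and Culd (1.01 ± 0.13, adjusted p = 0.0418) were higher in X1. Of all genes, 0.985% were called higher and 1.38% lower in this test. For each of the 6 genes the 3 X1 arrays and the 2 line 89 arrays did not overlap. This is no separate support, since the genes were picked by the test on the same arrays. Among all probe sets, the X1 arrays lay wholly below line 89 for 23.8% and wholly above for 11.4%.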

How the results depend on the processing

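Of the changes of single probe sets, ImpE2, ImpE3 and ImpL1 kept a negative sign in X1 against w1118 under every setting tried, but the count of 4 probe sets called lower did not hold. It was 2 with a floor of 1, 1 with a floor of 64, 0 with hybridization control scaling (1 at an unadjusted p under 0.05), 1 with no variance moderation, 0 at an adjusted p under 0.01, and 2 both with all 7 arrays in 3 groups and with the 5 GAL4 arrays as 1 group. Leaving out 1 array gave 0 to 4 (0 without w1118 replicate 1 or X1 replicate 3, 2 without w1118 replicate 2 or X1 replicate 2). With a replicate block it was 0, as it was over all probe sets, with 3 members at an unadjusted p under 0.05. Deviations of same-numbered arrays correlated at -0.05 and -0.01. These values cannot decide on pairing, since the deviations of the 2 w1118 arrays mirror each other. Nothing in the sample titles says that the numbers mark pairs, and they were not taken as such. All probe sets called, 3404 as reported, numbered 1394 with a floor of 64, 1822 with no moderation, 1181 at 0.01, 1230 with the GAL4 arrays as 1 group, and 1619 to 4170 with 1 array left out.

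The ImpE2 call in line 89 was lost (0) with a floor of 1, hybridization control scaling or the filter at 64. Trend and robust variance, no moderation or a threshold of 0.01 also removed it. It was lost too whichever array was left out, where the ImpE2 change ran from -1.09 to -0.98. The 822 calls over all probe sets became 409 (floor 1), 489 (floor 64), 1339 (hybridization controls), 438 (no moderation), 197 (0.01) and 478 to 1804 (1 array left out). For X1 against line 89 the 371 calls became 62, 113, 204, 67 and 23 in the same order, 139 with trend and robust variance, and 0 to 1138 with 1 array left out, with 0 to 1 member called.

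Signs turned for small changes. In X1 against w1118 these were Edg78E (-0.38 after quantile normalization, -0.33 to 0.24 with 1 array left out) and ImpE1 1634617_at (0.30, hybridization controls). In line 89 hybridization control scaling turned ImpE1 1625625_at (0.19), ImpL1 (0.32) and Edg78E (0.57). With 1 array left out, line 89 changes ran over -1.23 to 0.45 for ImpE1 1625625_at, -0.67 to 1.10 for ImpE1 1631375_a_at, -0.64 to 0.12 for ImpL1, -0.63 to 0.61 for Edg78E and -0.50 to 1.89 for Edg84A. In X1 against line 89 ImpE2 was 0.00310 (floor 64), 0.12 (quantile) and 0.13 (median scaling), Edg78E -0.016 (quantile), and Edg84A 0.24 (median scaling) and 0.089 (hybridization controls). With 1 array left out these changes ran over -0.29 to 0.63 for ImpE1 1634661_at, -0.20 to 0.000198 for ImpE2, -0.56 to 0.68 for Edg78E and -1.20 to 1.19 for Edg84A. The cause of these moves was not tested. Without X1 replicate 1, an alternative chosen after seeing the data, structural cuticle genes went from 1 higher and 3 lower to 3 and 8. Depth of signal limits ImpE1 most, with 5 and 3 arrays under 16 for its dim probe sets.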
